A study of Saccharomyces cerevisiae with 12 samples.

Results

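The genes described here are the 49 open reading frames (ORFs) of Saccharomyces cerevisiae whose standard name is PRP, SNU, CWC, SMD or SMX with a number, or LSM2 to LSM8. They were chosen by name alone from 5798 ORFs, and nearly all names of this form mark proteins of the splicing machinery. The data are 3′ READS profiles, which place the 3′ ends of polyadenylated RNA on the genome by sequencing the junction of the transcript and its poly(A) tail. The rpb4Δ strain (genotype RPB3::RPB3-3xFLAG NAT, RPB4::HIS3) lacks Rpb4, a subunit of RNA polymerase II (Pol II). The ubp8Δ strain (RPB3::RPB3-3xFLAG NAT, UBP8::HIS3) lacks Ubp8, the ubiquitin protease of the SAGA coactivator. Both strains therefore carry the FLAG tag on Rpb3 and a HIS3 marker at the deleted locus, and both were grown in rich medium to mid-log phase. No profile of a strain without a deletion was analysed here, so each value compares rpb4Δ with ubp8Δ and neither with wild-type. Each strain was sequenced in 2 biological replicates that the authors pooled into 1 profile, so no value has a replicate error and no test between the strains was made.

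The spliceosome removes introns from pre-mRNA and is assembled anew on each intron from small nuclear ribonucleoproteins (snRNPs). A ring of Sm proteins holds the U1, U2, U4 and U5 RNAs, a ring of Lsm2 to Lsm8 holds the end of U6, and further proteins are particular to each snRNP. Prp19 and its partners join when the complex is activated, and a set of RNA-dependent ATPases drives its remodelling. Few budding yeast genes have introns, and genes of the splicing machinery are mostly intronless themselves. By the RefSeq annotation, LSM2, LSM7 and SMD2 were the 3 members with an intron in the coding sequence, 6.12% of the members beside 4.73% of all ORFs.

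The signal analysed lies in the 400 nt downstream of each stop codon, called the window below, and is given by the authors in RPM, reads scaled to library size. A single read was worth 0.395 RPM in rpb4Δ and 0.0614 RPM in ubp8Δ, which gives pooled libraries of 2529381 and 16276281 reads. The windows of all ORFs held 1977159 reads in rpb4Δ and 13034210 in ubp8Δ, and those of the members held 7006 reads in rpb4Δ and 41526 in ubp8Δ. The rpb4Δ profile is thus the shallower by 6.59 times, and a member had a median of 52 reads there against 344 in ubp8Δ. The deletions were visible in the profiles: the RPB4 ORF had 0 reads in rpb4Δ and 244 in ubp8Δ, and the UBP8 ORF had 12 reads in rpb4Δ and 0 in ubp8Δ. All intervals below are 95% intervals for counting error only. They cover neither the spread between replicates nor repeated copies of a fragment, since the libraries were amplified by PCR and no molecular identifiers are named.

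The nucleotides at which the most reads ended are shown for 8 members, because the comparisons below turn on whether the strains used the same one. Each line gives 30 bases of the transcript strand, 5′ to 3′, from the R64 assembly (RefSeq), in which all 49 members have the coordinates of the profiles. The capital marks the poly(A) site as the method places it, the final base other than A. If genomic As follow, cleavage may have occurred at any of them. The first 4 sites were the highest of the window in both strains, and the others are pairs in which the strains differed, with the rpb4Δ site first. For PRP28 in ubp8Δ, the site at 94 nt tied with one at 340 nt, with 33 reads each.
SMX3, 77 nt after the stop codon, chrXVI:900512-900541 (+): atacaatatcattctatagCactcgcatcg
LSM2, 126 nt, chrII:171145-171174 (+): atgattcaacggtttgtatTaattatccgg
LSM5, 85 nt, chrV:462932-462961 (+): taaaggaaatcaagtgtttCtttttttttt
PRP31, 90 nt, chrVII:667896-667925 (+): cataaatttcgtaaaaagcCaaacaccaca
PRP43, 206 nt, highest in rpb4Δ, chrVII:281418-281447 (-): attcccttcgaggtgttttTacaagaacaa
PRP43, 113 nt, highest in ubp8Δ, chrVII:281511-281540 (-): aacctaaagctgcttgtacTaaaatcatag
PRP28, 22 nt, highest in rpb4Δ, chrIV:948486-948515 (-): ttatattattttctttcttTtttttgatgg
PRP28, 94 nt, highest in ubp8Δ, chrIV:948414-948443 (-): aaaagccaagacgcaaattTacaaacttca
CWC2, 169 nt, highest in rpb4Δ, chrIV:86028-86057 (-): attaaaaatactgactataTaagctagacc
CWC2, 196 nt, highest in ubp8Δ, chrIV:86001-86030 (-): accttataaactctgaataTaaaatcttta
SMX2, 71 nt, highest in rpb4Δ, chrVI:103984-104013 (+): tattttctaatttgcatttCcacgcctgcg
SMX2, 86 nt, highest in ubp8Δ, chrVI:103999-104028 (+): atttccacgcctgcgttgcTaaacccacat

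The first question was whether the splicing genes gave more or fewer 3′ ends in rpb4Δ than in ubp8Δ. A read marks a 3′ end, so the window RPM was not divided by gene length, and it reflects bulk cultures in which fewer transcripts per cell cannot be told apart from fewer cells with the transcript. Differences are given as the log2 ratio of window RPM + 1, which understates the change of low genes, and were counted when they reached 2-fold among genes with a mean of at least 2 RPM. Of the 44 members that passed this minimum, 6 were at least 2-fold higher in rpb4Δ (13.6%), while 16.7% of all 5108 ORFs tested were. A single member, PRP31, was at least 2-fold lower (2.27%, against 16.1% of all ORFs). The median log2 difference of the members was 0.14 and that of all ORFs 0.05. Of the members, 24 lay above 0 and 20 below it (45.5% below, against 47.8% of all ORFs). The median and the share of higher genes thus lay near those of all ORFs, while the share of lower genes was the smaller one in the members.

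**Figure D1:**
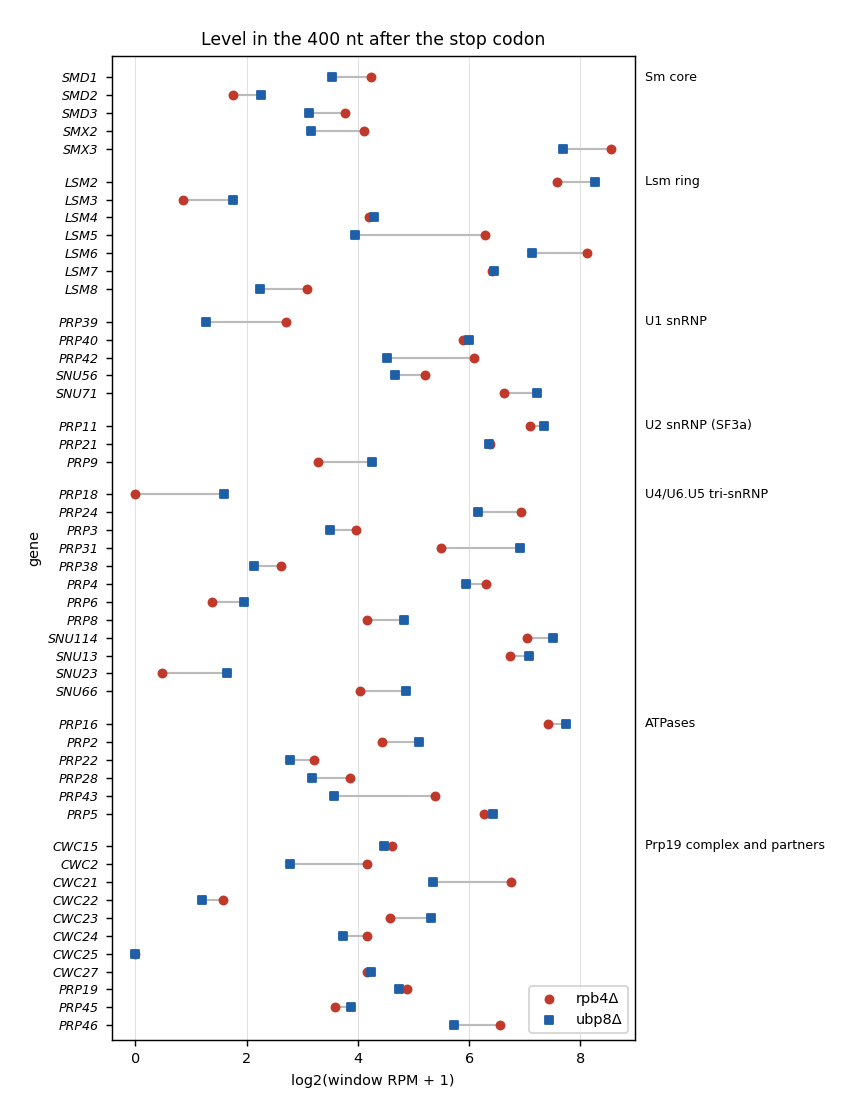
Window level of each of the 49 members, as log2(RPM + 1), in rpb4Δ (red circles) and ubp8Δ (blue squares), grouped by role. Levels ran from 0 to 374 RPM in rpb4Δ and from 0 to 307 RPM in ubp8Δ, and CWC25 lay at 0 in both.

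The Sm genes, whose products form the ring on the spliceosomal snRNAs, were all below the 2-fold limit, with 4 of 5 higher in rpb4Δ and 1 lower. SMX3, which encodes SmF, had the highest level of any member in rpb4Δ, with 947 reads (374 RPM) there against 3335 reads (205 RPM) in ubp8Δ. Its ratio of RPM was 1.83 (1.70 to 1.96), or 0.87 on the log2(RPM + 1) scale. SMX2, which encodes SmG, had 41 reads (16.2 RPM) in rpb4Δ against 130 reads (7.97 RPM) in ubp8Δ, a ratio of 2.04 (1.39 to 2.90) whose log2 value of 0.94 fell just short of the limit. The genes for the D proteins were less abundant. SMD1 had 17.8 RPM in rpb4Δ against 10.6 RPM in ubp8Δ, a ratio of 1.67 (1.18 to 2.34), and the ratio of SMD3 was 1.64 (1.07 to 2.43). SMD2 had 6 reads (2.38 RPM) in rpb4Δ against 62 reads (3.80 RPM) in ubp8Δ, and its interval of 0.22 to 1.43 spans no change. Subunits of a ring that holds 1 copy of each thus differed widely in 3′ ends, from 2.38 to 374 RPM in rpb4Δ and from 3.80 to 205 RPM in ubp8Δ.

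The Lsm genes held the largest difference among the members. LSM5 had 194 reads (76.7 RPM) in rpb4Δ against 236 reads (14.5 RPM) in ubp8Δ, a ratio of 5.29 (4.35 to 6.42) and a log2 difference of 2.33. LSM6 lay at the limit, with 698 reads (276 RPM) in rpb4Δ against 2257 reads (139 RPM) in ubp8Δ and a log2 difference of 0.99. LSM8, which sets the U6 ring apart from the cytoplasmic Lsm1 to Lsm7 ring of mRNA decay, had a ratio of 2.02 (1.13 to 3.40) from 19 reads in rpb4Δ and 61 in ubp8Δ. The other ring members did not follow. LSM2 was lower in rpb4Δ, with 484 reads (191 RPM) against 4998 reads (307 RPM) in ubp8Δ and a ratio of 0.62 (0.57 to 0.68). For LSM4 and LSM7 the intervals of the ratio, 0.66 to 1.28 and 0.84 to 1.13, included 1. LSM3 was nearly absent, with 2 reads in rpb4Δ and 39 in ubp8Δ, below the minimum level. Of the 6 Lsm genes tested, 3 were above 0 and 3 below it, or 4 and 2 when scaled to window reads, which turned LSM7.

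Of the members for the U1 snRNP, which recognises the 5′ splice site, PRP42 and PRP39, whose products are related, had the highest ratios. PRP42 had 170 reads (67.2 RPM) in rpb4Δ against 359 reads (22.1 RPM) in ubp8Δ, a ratio of 3.05 (2.52 to 3.67). PRP39 had 14 reads (5.55 RPM) in rpb4Δ against 23 reads (1.41 RPM) in ubp8Δ, and its log2 difference of 1.44 became 0.72 with a pseudocount of 5 RPM in place of 1. The remaining U1 members stayed within 2-fold. Their ratios were 1.47 (1.16 to 1.85) for SNU56, 0.93 (0.77 to 1.10) for PRP40 and 0.66 (0.58 to 0.75) for SNU71. Among U1 genes with other names, counted in a separate list below, YHC1 was at least 2-fold higher in rpb4Δ. MUD1 and NAM8 of that list were at least 2-fold lower. The SF3a genes of the U2 snRNP were also within the limit. PRP9 came closest to it, with 22 reads (8.70 RPM) in rpb4Δ against 293 reads (17.97 RPM) in ubp8Δ, a log2 difference of -0.97. PRP11 and PRP21, both abundant, had ratios of 0.84 (0.75 to 0.94) and 1.01 (0.87 to 1.17), and the log2 difference of PRP21 was below 0 with centring on the median of all ORFs.

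The genes grouped with the U4/U6.U5 tri-snRNP, the particle that carries the future catalytic core, had a median log2 difference of -0.40. Of these, 6 of 10 tested were below 0, where 47.8% of all ORFs were. PRP31, whose product binds the U4 snRNA together with Snu13, had 112 reads (44.3 RPM) in rpb4Δ against 1954 reads (120 RPM) in ubp8Δ. Its ratio was 0.37 (0.30 to 0.45) and its log2 difference -1.42. DBF2 begins on the same strand 364 nt after the PRP31 stop codon, and no PRP31 window read lay beyond 330 nt in either profile. SNU13, shared by the tri-snRNP and the box C/D snoRNPs, had a ratio of 0.78 (0.69 to 0.89), and SNU114, the GTPase of the U5 snRNP, one of 0.73 (0.65 to 0.82). SNU66 had 39 reads (15.4 RPM) in rpb4Δ against 456 reads (28.0 RPM) in ubp8Δ. PRP24, counted in this group although its product anneals U4 to U6 and is not a part of the particle, went the other way. Its ratio was 1.72 (1.51 to 1.95). PRP18, a factor of the second step of splicing, had 0 window reads in rpb4Δ, where a count of 0 leaves room for up to 1.19 RPM, against 33 reads (2.02 RPM) in ubp8Δ. ECT1 begins on the same strand 144 nt after the PRP18 stop codon. All but 1 of these ubp8Δ reads lay beyond that start, with 3 at 176 nt, 28 at 187 nt and 1 at 203 nt. PRP18 was below the minimum for the comparison, as were SNU23, LSM3, CWC22 and CWC25.

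Among the ATPases, PRP43 stood apart. Its product takes the spliceosome apart after splicing and also acts in ribosome assembly, and it had 103 reads (40.7 RPM) in rpb4Δ against 178 reads (10.9 RPM) in ubp8Δ, a ratio of 3.74 (2.89 to 4.77). PRP16, which acts before the second step and was the most abundant ATPase gene in both profiles, had 428 reads (169 RPM) in rpb4Δ against 3447 reads (212 RPM) in ubp8Δ, a ratio of 0.80 (0.72 to 0.88). PRP28, which displaces U1 from the 5′ splice site, had 34 reads (13.45 RPM) in rpb4Δ against 130 reads (7.99 RPM) in ubp8Δ. The 6 ATPase genes were split evenly, 3 above 0 and 3 below it.

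Of the members for Prp19, a ubiquitin ligase, and the proteins that join with it, 6 were above 0 and 3 below it. Over all ORFs, 47.8% were below 0. CWC2, whose product contacts the U6 snRNA, had 43 reads (17.01 RPM) in rpb4Δ against 96 reads (5.91 RPM) in ubp8Δ, a ratio of 2.88 (1.96 to 4.17). CWC21 had 270 reads (107 RPM) in rpb4Δ against 644 reads (39.55 RPM) in ubp8Δ, a ratio of 2.70 (2.33 to 3.11). Downstream of CWC21 the PHO8 gene begins on the same strand 181 nt after the stop codon, so that reads from the start of PHO8 would fall in the same window. Lower in rpb4Δ, but within 2-fold, was CWC23, the J-protein of spliceosome disassembly, with a ratio of 0.59 (0.44 to 0.77). CWC27, a cyclophilin, had 43 reads in rpb4Δ and 289 in ubp8Δ, a ratio of 0.96 (0.68 to 1.32). CWC25, needed for the first step, had no window read in either profile. Its ORF held 5 reads in rpb4Δ and 0 in ubp8Δ. CWC25 was the sole member without a window read in ubp8Δ, and 47 members had window reads in both profiles.

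**Figure D2:**
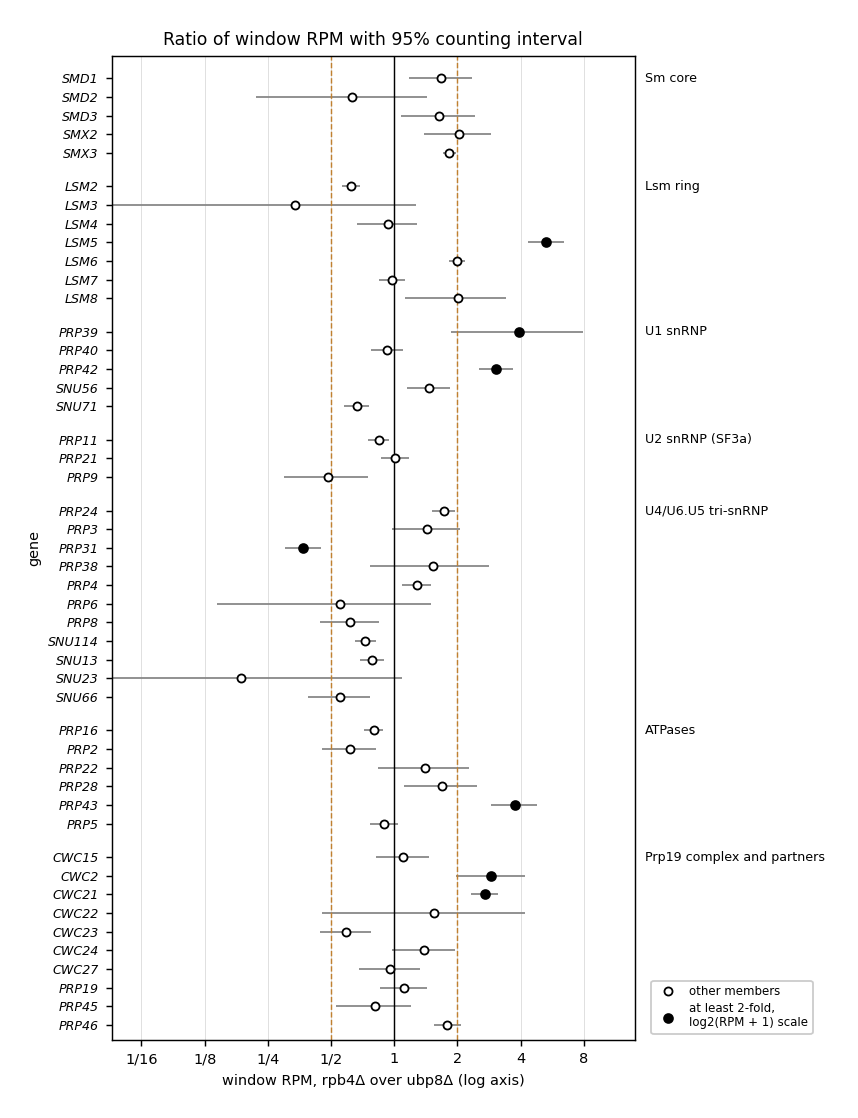
Ratio of window RPM, rpb4Δ over ubp8Δ, on a log axis, for the 47 members with reads in both profiles, with 95% counting intervals (lines). Filled points passed 2-fold on the log2(RPM + 1) scale: LSM5, PRP43, PRP42, PRP39, CWC21 and CWC2 to the right, PRP31 to the left. The interval of SNU23 runs past the left edge, as does that of LSM3.

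The second question was whether the strains used the same poly(A) sites in these genes. The weighted average position of a window, the mean distance from the stop codon weighted by reads, was compared for the 39 members with at least 20 window reads in both profiles. Its median was 102 nt in rpb4Δ and 111 nt in ubp8Δ, and the median difference was -1.61 nt for the members and -0.57 nt for all 4248 ORFs compared. The weighted average lay at least 20 nt further downstream in rpb4Δ in 4 members (10.3%, against 9.06% of all ORFs) and at least 20 nt upstream in 5 (12.8%, against 10.9%). The nucleotide with the most reads was the same in both strains in 23 members (59.0%, against 60.5% of all ORFs). On each count the members were close to the background. Where positions tied, the one nearer the stop codon was taken as the highest. In rpb4Δ, PRP45 had 11 reads at both 119 and 125 nt, and PRP46 had 54 at both 62 and 68 nt. These genes are counted as different, although 125 nt in PRP45 and 68 nt in PRP46 were the highest in ubp8Δ. CWC24, with 20 rpb4Δ reads at both 174 and 190 nt, is counted as the same.

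In all 5 Lsm genes compared the highest nucleotide was identical, and no weighted average differed by 20 nt. The T at 126 nt printed above for LSM2 took 60.5% of the window reads in rpb4Δ and 62.7% in ubp8Δ. In LSM4 a single site at 93 nt took 88.6% in rpb4Δ and 83.2% in ubp8Δ. LSM5 used the C at 85 nt for 68.6% of reads in rpb4Δ and 60.2% in ubp8Δ, and its weighted average of 86.3 nt in rpb4Δ lay 1.31 nt from the 84.95 nt of ubp8Δ. LSM5 also had sites that differed, at 71 nt with 0 reads in rpb4Δ and 32 in ubp8Δ and at 91 nt with 21 reads in rpb4Δ and 1 in ubp8Δ. Among the other Lsm genes, nucleotides read in 1 profile lay for example at 169 nt in LSM2, with 0 reads in rpb4Δ and 93 in ubp8Δ, and at 64 nt in LSM7, with 0 reads in rpb4Δ and 51 in ubp8Δ. The ring genes differed among themselves in spread. From the 10th to the 90th percentile of reads, LSM2 covered 7 nt in rpb4Δ and 25 nt in ubp8Δ, whereas LSM6 covered 159 nt in rpb4Δ and 156 nt in ubp8Δ, with clusters near 53, 168 and 209 nt in both.

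SMX3 had the most similar pair of profiles among the 39 members compared. The C at 77 nt took 79.4% of reads in rpb4Δ and 75.4% in ubp8Δ, and the profiles overlapped by 94.7%, where 100% would be identical shares at each nucleotide and the median member had 66.7%. DPM1 begins on the same strand 301 nt after its stop codon. PRP31, the gene with the lower level, likewise kept its highest nucleotide at 90 nt, with 52.7% of reads in rpb4Δ and 71.2% in ubp8Δ. SNU13 ended mostly at 70 nt, with 63.3% in rpb4Δ and 59.5% in ubp8Δ, and SNU71 at 282 nt, with 57.3% in rpb4Δ and 58.3% in ubp8Δ. The weighted average of PRP11 was 275 nt in rpb4Δ and 290 nt in ubp8Δ, and that of LSM7 49.8 nt in rpb4Δ and 59.96 nt in ubp8Δ.

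**Figure D3:**
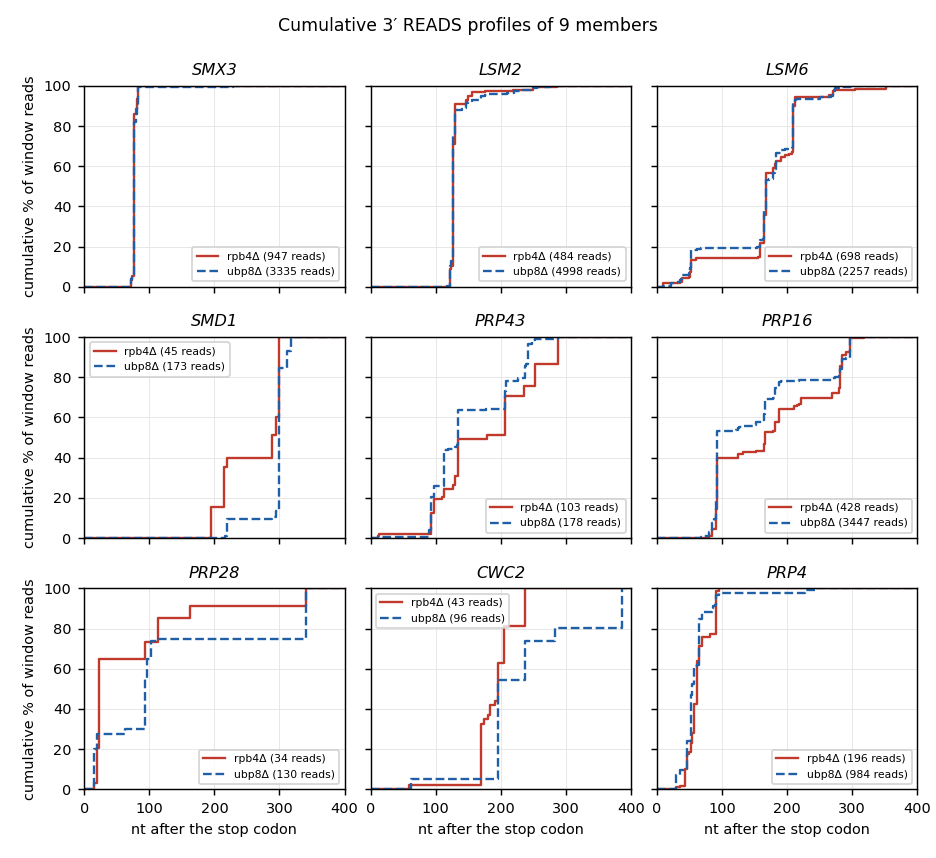
Cumulative percent of window reads against distance from the stop codon for 9 members, in rpb4Δ (red, solid) and ubp8Δ (blue, dashed), with the reads behind each curve. The curves of SMX3, LSM2 and LSM6 nearly coincide, while those of SMD1, PRP43, PRP16, PRP28 and CWC2 separate. In PRP4 they part at single steps.

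The ATPase genes held the largest upstream difference and 2 of the downstream ones. In PRP28 the weighted average was 74.7 nt in rpb4Δ and 135 nt in ubp8Δ, a difference of -60.6 nt with a standard error of 19.4 nt from the reads. The T at 22 nt had 14 of 34 reads in rpb4Δ and 0 of 130 in ubp8Δ, and the T at 94 nt had 3 reads in rpb4Δ and 33 in ubp8Δ. Close to 22 nt, ubp8Δ did have reads. Position 15 nt had 1 read in rpb4Δ and 26 in ubp8Δ, and 19 nt had 6 in rpb4Δ and 10 in ubp8Δ. A site at 340 nt, the equal highest in ubp8Δ, also had 3 reads in rpb4Δ and 33 in ubp8Δ. Without positions beyond 300 nt the difference was -16.7 nt. Without positions followed by a genomic A it turned to 4.80 nt. In PRP43 the weighted average was 177 nt in rpb4Δ and 153 nt in ubp8Δ, a difference of 23.3 nt (standard error 8.28 nt). The site at 206 nt had 20 of 103 reads in rpb4Δ and 16 of 178 in ubp8Δ, and that at 113 nt had 4 reads in rpb4Δ and 32 in ubp8Δ. Both sites were present in both strains, at different shares. PRP16 had its highest nucleotide at 93 nt in both, with 25.5% of reads in rpb4Δ and 33.1% in ubp8Δ, and its weighted average of 176 nt in rpb4Δ against 153 nt in ubp8Δ differed by at least 20 nt. Its distal sites differed in both directions, with 11.2% of reads in rpb4Δ and 3.54% in ubp8Δ at 281 nt, but 6.78% in rpb4Δ and 10.2% in ubp8Δ at 296 nt.

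The remaining differences were spread over the other roles. In CWC2 the T at 169 nt had 13 of 43 reads in rpb4Δ and 0 of 96 in ubp8Δ, and the T at 196 nt had 8 reads in rpb4Δ and 47 in ubp8Δ. The weighted average of CWC2 was 193 nt in rpb4Δ and 240 nt in ubp8Δ, and the weighted median was the same in both. A site at 386 nt had 0 reads in rpb4Δ and 19 in ubp8Δ, and with positions 1 to 300 the difference of -47.9 nt became -11.96 nt, short of 20 nt. In CWC23 the difference of 22.1 nt (standard error 7.91 nt) rested on positions beyond 300 nt, such as 333 nt, which had 9 reads in rpb4Δ and 0 in ubp8Δ, and turned to -5.32 nt without them. RSM23 begins on the same strand 218 nt after the CWC23 stop codon. SNU66 had its highest nucleotide at 184 nt in rpb4Δ and at 131 nt in ubp8Δ, and its weighted average differed by 21.2 nt (standard error 4.23 nt). In SMX2 the pair of sites printed above lies 15 nt apart. The C at 71 nt had 18 of 41 reads in rpb4Δ and 7 of 130 in ubp8Δ, and the T at 86 nt had 14 reads in rpb4Δ and 37 in ubp8Δ. The adjacent C at 72 nt, however, had 1 read in rpb4Δ and 31 in ubp8Δ, so both strains had reads at this pair of Cs. PRP21 kept its highest nucleotide at 105 nt, and its weighted average was 112 nt in rpb4Δ and 135 nt in ubp8Δ. In PRP21 the positions 235 and 239 nt had 0 reads in rpb4Δ, against 101 and 43 in ubp8Δ, and ECM25 begins on the same strand 196 nt after the stop codon. Without positions followed by a genomic A the PRP21 difference of -23.0 nt turned to 16.3 nt. Of the 9 genes, PRP28, PRP43 and PRP16 also differed by at least 20 nt in the weighted median, by -72, 45 and 73 nt.

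SMD1 is a special case, because it meets another member end to end. SMD1 (chrVII:635712-636152, plus strand) and PRP38 (chrVII:636147-636875, minus strand) are convergent and their coding sequences overlap by 6 nt. The highest SMD1 site, 300 nt after its stop codon, therefore lies inside the PRP38 ORF on the opposite strand, and the window of PRP38 lies in the same way over SMD1. In SMD1 this site had 18 of 45 reads in rpb4Δ and 123 of 173 in ubp8Δ, while 2 sites nearer to the stop codon, at 195 and 214 nt, had 7 and 9 reads in rpb4Δ and 0 each in ubp8Δ. The weighted average of SMD1 was 261 nt in rpb4Δ and 295 nt in ubp8Δ, a difference of -33.5 nt (standard error 6.89 nt). PRP38, with 13 reads in rpb4Δ and 55 in ubp8Δ, was too shallow for the comparison. Its highest nucleotides, at 160 nt in rpb4Δ and at 169 nt in ubp8Δ, each had 0 reads in the other strain.

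**Figure D4:**
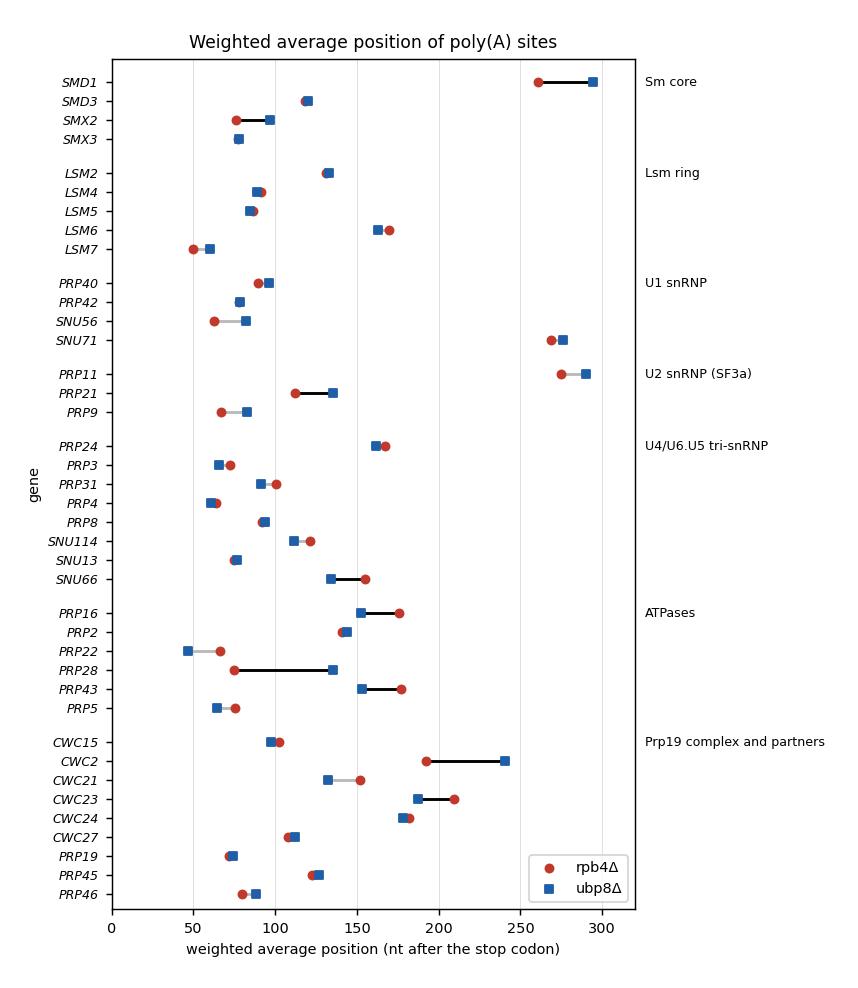
Weighted average position in nt after the stop codon for the 39 members with at least 20 window reads in both profiles, in rpb4Δ (red circles) and ubp8Δ (blue squares). Black lines mark the 9 differences of at least 20 nt, 4 downstream and 5 upstream in rpb4Δ. The spread between genes, from 49.8 to 275 nt in rpb4Δ, is far larger than most differences between strains.

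Some members differed in sites without a large difference in the average. In PRP4, a protein of the U4/U6 snRNP, the site at 61 nt had 42 of 196 reads in rpb4Δ and 5 of 984 in ubp8Δ, and the site at 65 nt had 15 reads in rpb4Δ and 226 in ubp8Δ. The weighted averages, 64.1 nt in rpb4Δ and 61.0 nt in ubp8Δ, differed by 3.12 nt. In PRP3, its partner in the snRNP, the site at 66 nt had 21 of 37 reads in rpb4Δ and 1 of 167 in ubp8Δ. To see how common such sites were, positions with at least 5 reads in rpb4Δ were looked up in ubp8Δ, and positions with at least 33 reads in ubp8Δ, the same number at the depth of that profile, were looked up in rpb4Δ. This count was chosen after the profiles had been seen. Of 236 such positions in the members in rpb4Δ, 26 (11.0%) had no read at that nucleotide in ubp8Δ, against 13.0% over all ORFs, and 9 (3.81%, against 4.36%) had none within 5 nt. Of 198 positions in ubp8Δ, 22 (11.1%) had no read at that nucleotide in rpb4Δ, against 17.6% over all ORFs, and 7 (3.54%, against 7.54%) had none within 5 nt. Sites seen in 1 profile were thus found in both directions, and reads that are copies of the same fragment could not be told apart from independent ones.

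The number of poly(A) sites, counted as window positions with a read, had a median of 7 per member in rpb4Δ and 11 in ubp8Δ. With ubp8Δ reads randomly thinned to 15.2%, which matches the window reads of all ORFs but not those of the members alone, the median was 8.5. Over all ORFs the medians were 9 in rpb4Δ, 15 in ubp8Δ and 10.5 in thinned ubp8Δ. LSM6 had the most sites, 34 in rpb4Δ and 43 in ubp8Δ, followed by PRP16 with 28 in rpb4Δ and 32 in ubp8Δ. SMX3 had 10 in each. CWC2 was among the few with more sites in the shallower profile, 9 in rpb4Δ and 5 in ubp8Δ.

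The third question was how many reads lay inside the ORF, where a poly(A) site upstream of the stop codon would cut the coding sequence short. The ORF share is the reads in the ORF as a percent of those in the ORF and the window, and it was compared for the 40 members with at least 20 reads in both profiles. The median share was 2.27% in rpb4Δ and 9.16% in ubp8Δ, and over all ORFs it was 3.38% in rpb4Δ and 11.7% in ubp8Δ. In 15 members (37.5%) the share was at least 10 percentage points lower in rpb4Δ, against 36.1% of all ORFs, and in none was it that much higher, against 3.45%. Lower ORF shares in rpb4Δ were thus as common in the splicing genes as elsewhere, and 30 of 40 members had the lower share in rpb4Δ, 75.0% beside 75.3% of all ORFs. The deposited values give the sum over the ORF and the number of its positions with reads, and the place of these reads within the ORF was not analysed here.

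The highest ORF shares were found in long genes. PRP8, at 7242 nt the longest member, encodes the large protein at the centre of the spliceosome. Its ORF held 110 of 153 reads in rpb4Δ, 71.9% (Wilson interval 64.3 to 78.4%), and 2494 of 2942 reads in ubp8Δ, 84.8% (83.4 to 86.0%). These reads were spread over 29 positions in rpb4Δ and 102 in ubp8Δ. PRP6, which bridges the U5 and U4/U6 snRNPs, had 90% (76.9 to 96.0%) in rpb4Δ and 89.7% (86.6 to 92.2%) in ubp8Δ. PRP2, an ATPase that acts before the first step, had 75.1% (68.8 to 80.5%) in rpb4Δ and 68.3% (66.1 to 70.5%) in ubp8Δ. Most 3′ ends assigned to these 3 genes thus lay upstream of the stop codon in both strains, and they were the members at or above 50% in rpb4Δ (7.50%, against 9.02% of all ORFs). In ubp8Δ 6 members reached 50% (15.0%, against 18.3%), with PRP22, PRP42 and PRP9 added. Members too shallow in rpb4Δ for the comparison also reached it in ubp8Δ, and some were short. PRP18 (756 nt) had 81.5% in ubp8Δ, PRP38 (729 nt) 53.4% and CWC22 (1734 nt) 91.5%. The rest of those left out were below 50% in ubp8Δ or, for CWC25, without reads there.

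PRP22, the ATPase that releases the spliced mRNA, had the largest difference, with 17 of 38 reads (44.7%, 30.1 to 60.3%) inside the ORF in rpb4Δ and 398 of 494 (80.6%, 76.8 to 83.8%) in ubp8Δ. PRP40 had 9 of 156 reads (5.77%, 3.06 to 10.6%) in rpb4Δ and 399 of 1421 (28.1%, 25.8 to 30.5%) in ubp8Δ. PRP42 had 34.6% (29.1 to 40.6%) in rpb4Δ and 54.4% (50.9 to 57.8%) in ubp8Δ. For these 3 genes the counting intervals of the strains were apart. In PRP9 they met, with 31.2% (18.0 to 48.6%) in rpb4Δ and 51.2% (47.3 to 55.2%) in ubp8Δ. CWC27 had 1 of 44 reads inside the ORF in rpb4Δ and 88 of 377 in ubp8Δ. Among the short Sm genes, SMD1 had 0 of 45 reads in rpb4Δ and 45 of 218 in ubp8Δ, and SMX2 had 0 of 41 in rpb4Δ and 24 of 154 in ubp8Δ, whereas SMX3 had no ORF read in either profile, 0 of 947 in rpb4Δ and 0 of 3335 in ubp8Δ. PRP18, without window reads in rpb4Δ, had 6 ORF reads there and 145 of 178 reads inside the ORF in ubp8Δ.

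**Figure D5:**
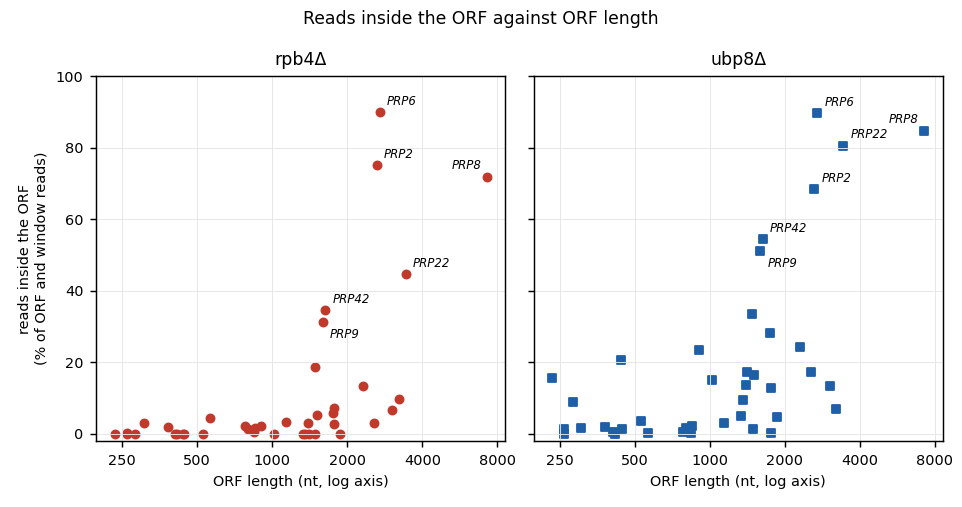
Reads inside the ORF, as percent of ORF and window reads, against ORF length on a log axis, for the 40 members with at least 20 reads in both profiles, in rpb4Δ (left, red) and ubp8Δ (right, blue). The 6 named genes reached 50% in ubp8Δ, and all are longer than 1500 nt.

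Over the 15 members with ORFs longer than 1500 nt the median share was 9.70% in rpb4Δ and 24.3% in ubp8Δ, and over the 25 shorter ones it was 0% in rpb4Δ and 2.17% in ubp8Δ. The same held for all ORFs, with 11.7% in rpb4Δ and 30.9% in ubp8Δ for longer ones and 1.37% in rpb4Δ and 4.51% in ubp8Δ for shorter ones. The ORF share was higher in longer genes among the splicing genes as among the rest. Among the longer genes with low shares, PRP16 (3216 nt) had 9.70% in rpb4Δ and 6.89% in ubp8Δ, and SNU66 (1764 nt) had 7.14% in rpb4Δ and 0.219% in ubp8Δ.

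Of the 39 highest nucleotides compared, 31 in rpb4Δ (79.5%) and 33 in ubp8Δ (84.6%) were followed by a genomic A, against 91.0% in rpb4Δ and 91.3% in ubp8Δ over all ORFs. The word TATATA, a form of the yeast efficiency element, was found on the transcript strand in the 80 bases that end at the highest nucleotide in 20 of 39 members in rpb4Δ (51.3%, against 40.7% of all ORFs) and in 21 in ubp8Δ (53.8%, against 39.2%). AATAAA was found in 3 members in either strain (7.69%), namely CWC24, PRP19 and PRP45, against 15.8% of all ORFs in rpb4Δ and 15.6% in ubp8Δ. Such matches describe the letters of the window and no function was tested. A gene on the same strand reached into the window of 14 members (28.6%, against 24.7% of all ORFs). Of the members, 48 (97.96%, against 93.3% of all ORFs) had at least 1 window position at which the 17 aligned bases occur more than once in the genome and cannot be placed, with PRP39 at 61 such positions and LSM8 at 46 the most affected.

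In a list of 46 splicing genes with other names, 9 of the 42 tested for level were at least 2-fold higher in rpb4Δ (21.4%) and 3 lower (7.14%). Their weighted average lay at least 20 nt downstream in rpb4Δ in 5 of 36 (13.9%) and upstream in 4 (11.1%). The ORF share was at least 10 percentage points lower in rpb4Δ in 13 of 38 (34.2%) and that much higher in none. The highest nucleotide was the same in both strains in 17 of 36 (47.2%, against 59.0% of the members), and TATATA was found in 27.8% in rpb4Δ and 33.3% in ubp8Δ, below the shares of all ORFs where those of the members lay above. The 9 with higher levels were BUD13, CBC2, CEF1, HSH155, RDS3, RSE1, SNT309, SUB2 and YHC1. The 3 with lower levels were ECM2, MUD1 and NAM8.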

How the data were processed

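Of 12 samples in the series, only the 4 of 3′ READS were used; the deposited profile of a strain pools its 2 replicates. For these, the authors trimmed the leading Ts of read 1, placed the following 17 bases on SacCer3 with Bowtie (version not given in the sources used here), allowing unique perfect matches, and retained reads with untemplated As. The deposited window, highest-position and ORF values are in RPM; the methods do not describe how the authors scaled them. Values at single positions were deposited relative to the highest one of the same feature, as percent with 2 decimals. Whole reads were recovered from the smallest step shared by highest-position values under 60 RPM: 4611 of 4611 values in rpb4Δ and 4917 of 4917 in ubp8Δ were whole multiples within 0.0051 RPM.

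Each comparison was computed over all ORFs and the members were read from it. Ratio intervals are exact (Clopper-Pearson) and ORF share intervals Wilson. An exact binomial test (two-sided) on recovered reads, which compares the libraries and not the strains, called 29 of 44 members and 3724 of 5108 ORFs at a Benjamini-Hochberg adjusted p below 0.05. Alternatives were other minimums, pseudocounts, scalings, windows and position measures, other site definitions, thinning (10 draws to 15.2%), and leaving out positions before a genomic A or members with a same-strand gene in the window. Genes named were all Sm and Lsm genes, the members highest in level, those with the largest differences in level, position or ORF share, and those without reads; PRP2, PRP3, PRP4, PRP6, PRP8, PRP38, CWC22, CWC24, PRP19, PRP45 and SNU23 were added after their values were seen. The members and lists were chosen with earlier results of these data known. Coordinates are those of the profiles; bases and neighbours come from R64, in which 5787 of 5795 ORFs found by name agree in start and end. Functions were tested on simulated data. Python 3.11.15, numpy 2.4.6, pandas 2.3.3, scipy 1.17.1 and matplotlib 3.10.9 were used.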

Additional observations from a re-analysis of the deposited data

How the results depend on the processing

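With 1 pooled profile per strain, no result has a replicate error, and the rpb4Δ depth limits every member under about 20 reads. No paired analysis was possible because the replicates of each strain are pooled in 1 profile, and none could be left out for the same reason. Members at least 2-fold lower in rpb4Δ numbered 1, against 3 with no minimum on RPM. They numbered 2 with a pseudocount of 0.1 RPM, with centring on the median of all ORFs or with positions 1 to 300. Without members that have a same-strand gene in the window there were 0, since PRP31 is one of them. No PRP31 window read lay as far downstream as the start of that gene, DBF2. The exact count test on reads, which compares libraries only, called 29 of 44 members, 17 higher and 12 lower in rpb4Δ. Over all ORFs it called 3724 of 5108, 1982 higher and 1742 lower. Scaling to window reads moved the median log2 difference of all ORFs to 0.08, against 0.05 as deposited.

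By weighted average 9 members differed by at least 20 nt, 5 of them upstream, and most alternatives gave fewer. The highest position gave 2 upstream. The weighted median gave 4 in all and 1 upstream, positions 1 to 300 gave 3 upstream, and positions not followed by a genomic A gave 4 in all and 1 upstream among 17 members. A minimum of 100 reads gave 3 among 20 members, 2 downstream and 1 upstream, and a minimum of 1 read gave 14 among 47, 8 of them downstream. Signs turned for PRP28 (4.80 nt) and PRP21 (16.3 nt) without positions before a genomic A and for CWC23 (-5.32 nt) with positions 1 to 300. In all, 21 values for single genes stayed within the error, 18 moved and 3 turned, and the cause was not tested. The 21 include values at other read minimums, which decide if a gene is counted and cannot change its value.

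The median number of sites was 4 in each strain when a site needed 5% of the signal, and 3 in rpb4Δ and 4 in ubp8Δ with sites within 10 nt merged. With at least 100 reads, 7 of 23 members had an ORF share at least 10 percentage points lower in rpb4Δ and none that much higher. With at least 1 read 3 were that much higher. Apart from the count test, no share over all ORFs is given for the changed settings of this section. Those counts describe the members alone and cannot be set against the background.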
